A study of Mus musculus with 40 samples.

Results

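Meox1, Meox2, Foxc1, Foxc2, Tcf15, Pax1 and Uncx encode 7 transcription factors that mark the paraxial mesoderm and the somites that form from it. They were taken by symbol, 1 row each, from a table of read counts for 26906 genes in mouse embryonic stem cell aggregates, and all 7 were among the 16878 genes that passed the filter on low counts. Each is described across 5 days of culture, with and without XAV939, a small molecule that blocks the tankyrases and thereby Wnt/β-catenin signalling, since Axin is then no longer degraded.

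The paraxial mesoderm lies on both sides of the neural tube. Its unsegmented part, the presomitic mesoderm, is divided step by step into epithelial blocks, the somites, under the control of Wnt, Fgf and Notch signals, and the somites later give rise to sclerotome (the source of vertebrae and ribs), dermomyotome and myotome. Foxc1 and Foxc2 are related forkhead factors of presomitic and somitic mesoderm, and mouse embryos that lack both form no somites. Meox1 and Meox2 are homeodomain factors of the early somite and its sclerotome, Tcf15 (paraxis) is a basic helix-loop-helix factor needed for somites to become epithelial, Uncx is a homeodomain factor of the caudal part of the somite and sclerotome, and Pax1 is a paired-box factor of the ventral sclerotome that the pharyngeal pouches also express.

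The aggregates were made from CGR8 cells, an embryonic stem cell line of the 129 strain, in serum-free N2B27 medium with Activin-A, Fgf2 and knockout serum replacement. The study asks how XAV939 alters the development of these epiblast-like aggregates. The 5 XAV939 groups were treated from 0 to 72 h and collected on days 3, 4, 5, 6 and 7, so days 4 to 7 lie after the stated end of the treatment. The 5 untreated groups were collected on the same days. There were 4 libraries in each of the 10 groups, 40 in all, numbered 1 to 4. The labels of the untreated samples add that no Matrigel was used, whereas those of the XAV939 samples do not mention it, and a difference of this kind cannot be told apart from that of XAV939. All groups share 1 cell line and the same base medium, and the labels do not say whether libraries of a group came from separate cultures.

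Library totals lay between 30197759 and 44086019 counts, with a median of 35737152. Levels are given as CPM, the count scaled to a common library total with trimmed means of M values (TMM). A gene was called, and is said to rise or fall, at a Benjamini-Hochberg adjusted p below 0.05 in edgeR's quasi-likelihood test on all 40 libraries. The share of all tested genes called in a comparison is given beside the first count of the 7 genes called in it.

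In the mm10 build (GENCODE M21) the genes lie on 6 chromosomes. Meox1 spans chr11:101877510-101894374 on the minus strand, and the other 6 lie on the plus strand. Those are Meox2 at chr12:37108540-37179534, Foxc1 at chr13:31806633-31812476, Foxc2 at chr8:121116171-121118895, Tcf15 at chr2:152143561-152149097, Pax1 at chr2:147361925-147393295 and Uncx at chr5:139543494-139548179. Meox1 and Pax1 overlap antisense transcripts, Gm11551 with 40 counts over the 40 libraries beside 69363 for Meox1, and AI646519 with 457 beside 10513 for Pax1. Meox2 overlaps Gm48617 on its own strand (24 counts beside 3005), and Foxc2 lies within Gm20388, a same-strand model with no row in the count table. Reads of overlapping genes could have been split between them.

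A promoter window of 250 bases before a RefSeq start site (GRCm38.p6) was at hand for Meox2, Foxc1, Pax1 and Uncx. The start site of the Pax1 window lies 3064 bases downstream of the RefSeq gene start and that of the Uncx window 33 bases downstream, and both windows lie within the GENCODE spans given above. The windows were searched on both strands for CTTTGA and for its variant CTTTGT, which share their first 5 letters and are read by TCF/LEF factors of the Wnt pathway, for TCACAC of T-box factors, TAATTA of homeodomain factors, TGTTTA of forkhead factors and CANNTG, the E-box of factors such as Tcf15. None of the 4 windows held the CTTTGA motif, present in 13.8% of 32851 windows of the same length, nor the CTTTGT motif (16.5%) nor the TCACAC motif (12.3%), and no match of 1 motif overlapped one of another. The Foxc1 and Meox2 windows are shown because these genes had the first and one of the last onsets among the 7 in untreated aggregates. The Foxc1 window, chr13:31806396-31806645 on the plus strand, was 70.8% G and C, more than 91.7% of all windows, and held none of the 6 motifs, while the Meox2 window, chr12:37108290-37108539 on the plus strand, was 62.0% G and C and held 1 CANNTG (in capitals), a motif present in 66.2% of windows.
Foxc1: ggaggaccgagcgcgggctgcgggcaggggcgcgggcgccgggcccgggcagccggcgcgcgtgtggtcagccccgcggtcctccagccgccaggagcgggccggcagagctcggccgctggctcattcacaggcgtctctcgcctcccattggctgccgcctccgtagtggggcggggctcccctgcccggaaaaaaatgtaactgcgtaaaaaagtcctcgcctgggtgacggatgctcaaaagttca
Meox2: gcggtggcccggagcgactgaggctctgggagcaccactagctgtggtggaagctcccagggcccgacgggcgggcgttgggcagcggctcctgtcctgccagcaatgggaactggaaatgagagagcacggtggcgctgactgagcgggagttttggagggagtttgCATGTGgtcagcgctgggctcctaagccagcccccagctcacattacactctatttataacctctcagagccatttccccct
The Uncx window held TAATTA at 2 places, starting at positions -133 and -30 from the start site, where 4.84% of windows held it at least once. Uncx was the member with the most matches of a motif, and both sites are shown with 12 bases on each side and TAATTA in capitals, from chr5:139543753-139543782 and chr5:139543856-139543885 on the plus strand.
Uncx distal: gcgtgtcaggtaTAATTAgcaatcgatatg
Uncx proximal: ccgggccgcggcTAATTAtcgagagcttga
A match is a description of these letters, not of binding.

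All 7 genes rose between day 3 and day 7 in both arms. The share of all genes higher at day 7 than at day 3 was 36.8% in XAV939 aggregates and 34.7% in untreated aggregates. The 7 genes summed to 1.32 to 2.10 CPM at day 3 in XAV939 libraries and to 125 to 234 CPM at day 7, and in untreated libraries to 1.87 to 2.40 CPM at day 3 and 183 to 308 CPM at day 7. The change was steep and late. In XAV939 libraries the median sum was 1.77 CPM at day 3, 1.12 CPM at day 4, 2.64 CPM at day 5, 115 CPM at day 6 and 204 CPM at day 7. In untreated libraries it was 2.01, 1.495, 10.4, 243 and 255 CPM on the same days.

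By a fixed limit the genes did not start together. Taking as onset the first day on which all 4 libraries of a group reached 1 CPM, Foxc1 started on day 6 in XAV939 aggregates and on day 5 in untreated aggregates, Uncx on day 7 and on day 6, Meox1, Foxc2 and Tcf15 on day 6 in both arms, and Meox2 and Pax1 on day 7 in both. The limit was the same for all genes, so a gene of low level can rise before it reaches the limit. Uncx in XAV939 aggregates and Meox2 in untreated aggregates were called higher at day 6 than at day 5 (adjusted p = 1.74e-06 and 5.37e-06), before their onset at day 7. Several genes missed this limit by little. The lowest library had 0.954 CPM for Foxc1 at day 5 with XAV939, so the difference in its onset between the arms rests on 1 library just under the limit, and in untreated aggregates it had 0.947 CPM for Meox1 at day 5 and 0.943 CPM for Meox2 at day 6. In XAV939 aggregates each of the 7 had its highest mean on day 7. In untreated aggregates Meox1, Foxc1, Foxc2 and Tcf15 had theirs on day 6, and Meox2, Pax1 and Uncx on day 7. These are orders of means, and day 7 was not lower than day 6 by the test for any of the 7 in untreated aggregates.

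**Figure D1:**
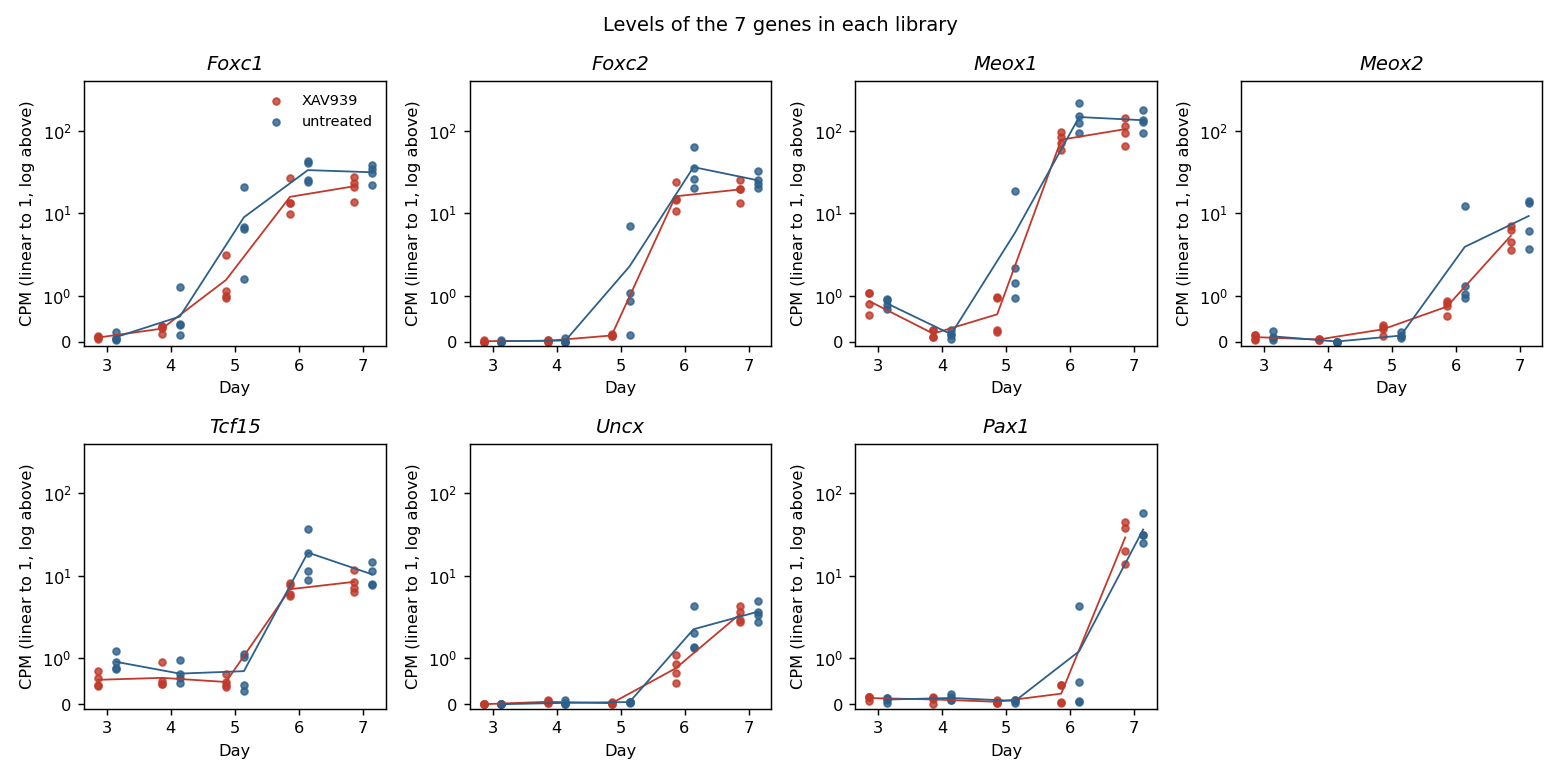
Level of each of the 7 genes in every library, in CPM on an axis that is linear up to 1 and logarithmic above, against day of culture. XAV939 libraries are red and drawn left of the blue untreated libraries, and lines join the group means. Most of the 7 genes are far higher at day 6 than at day 4, Pax1 rises mainly between days 6 and 7, and 1 untreated library at day 5 lies far above the others in the panels of Meox1 and Foxc2.

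Counted over the 4 steps from day to day, 11 of 28 steps of the 7 genes were called in XAV939 aggregates and 15 of 28 in untreated aggregates. The step to day 6 held 5 of these calls with XAV939 and 7 without. In XAV939 aggregates 5 of the 7 rose between day 5 and day 6, against 9.27% of all genes, and in untreated aggregates all 7 rose, against 11.1% of all genes. The step to day 7 brought 3 rises in XAV939 aggregates (4.2% of all genes rose), those of Meox2, Pax1 and Uncx, and in untreated aggregates that of Pax1 alone (5.17%). The step to day 5 brought 1 rise in XAV939 aggregates, that of Foxc1 (15.9%), and 4 in untreated aggregates, those of Meox1, Meox2, Foxc1 and Foxc2 (10.5%). At the step to day 4, Uncx rose (20.3%) and Meox1 fell (17.7%) in XAV939 aggregates, whereas in untreated aggregates Foxc1 rose (17.6%) and Meox1 and Meox2 fell (15.1%). When only the libraries of the 2 groups of a step were fitted, the untreated count was 9. That fit applied the filter on low counts anew, and genes that did not pass it could not be called.

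XAV939 aggregates were called lower than untreated aggregates for 3 of the 7 genes at day 5 and for a different 3 at day 6. At day 5, Foxc1, Foxc2 and Meox1 were 5.71-fold, 16.6-fold and 9.78-fold lower with XAV939. At day 6, Meox2, Tcf15 and Uncx were 5.14-fold, 2.78-fold and 2.88-fold lower, while all 7 were lower in each of the 4 pairs of libraries with the same number, which was so for 13.3% of all genes. At days 3, 4 and 7 none of the 7 was called. In such bulk samples, fewer cells of a type and less RNA per cell cannot be told apart.

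At day 5, 3 of the 7 genes were called and all 3 were lower in XAV939 aggregates, where 1.43% of all genes were called lower and 2.34% in either direction. The median log2 change was -0.99 over the 7 genes and 0.01 over all genes. No member had groups that did not overlap at this day, a condition that 7.46% of all genes met, 4.02% with XAV939 lower, and only Foxc1 was lower in all 4 pairs of a number (14.2% of all genes). Meox2 had a log2 change of 1.03, Tcf15 of -0.56, Pax1 of -0.49 and Uncx of -0.99, and none of these 4 was called (adjusted p = 0.711, 0.684, 0.941 and 0.772). Without untreated library 1 of day 5, Foxc2 alone of the 7 was called.

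At day 6, 3 of the 7 were called lower, where 2.95% of all genes were called lower and 4.34% in either direction. The 3 were Meox2, Tcf15 and Uncx, and they were also the members whose groups did not overlap, as in 5.92% of all genes, 3.82% with XAV939 lower. The median log2 change was -1.47 over the 7 genes and -0.01 over all genes, and 6 of the 7 had an unadjusted p below 0.05. With libraries of the same number in both arms treated as pairs within the day, the calls at day 6 were those of Foxc2, Tcf15, Pax1 and Uncx, and Meox2 was not called, whereas those at day 5 were the same 3 genes. Of the 16878 genes this paired fit called 1240 at day 5 and 1727 at day 6, against 395 and 733 without pairing. It thus raised calls in general, and paired counts are to be read against these totals. Without untreated library 1 or without XAV939 library 4 of day 6, Tcf15 alone was called at that day. A fit of only the 8 libraries of a day, in place of all 10 groups, called no gene at either day, and the cause was not tested. The filter on low counts was applied anew in that fit, so the genes it tested were not the same 16878. Foxc2 at day 5 did not pass that filter and was not tested there. None of the 7 was called at either day when library 1 was left out of every group.

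At day 7 the 7 genes had log2 changes between -0.80 and -0.10, all with XAV939 lower. None was called by edgeR or DESeq2 or had an unadjusted p below 0.05 in edgeR. Of all genes edgeR called 0.00592% at day 7, whereas DESeq2 called 100 genes and edgeR with libraries paired within the day called 381. The 95% intervals still leave room for differences. That of Meox1 ran from -1.31 to 0.59 around -0.36, that of Meox2 from -1.86 to 0.27 around -0.80 and that of Foxc1 from -1.46 to 0.34 around -0.56. For Foxc2 it ran from -1.33 to 0.59 around -0.37, for Tcf15 from -0.99 to 0.38 around -0.30, for Pax1 from -1.44 to 0.80 around -0.32 and for Uncx from -0.82 to 0.62 around -0.10. Thus Uncx and Tcf15 had the narrowest intervals, and a difference of 1 log2 unit lay inside the intervals of the other 5. At days 3 and 4 edgeR and DESeq2 called none of the 7 and none had an unadjusted p below 0.05 in edgeR. Of all genes edgeR called 0.00592% and 0.0178% at these days, and DESeq2 called 0 and 56 genes.

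**Figure D2:**
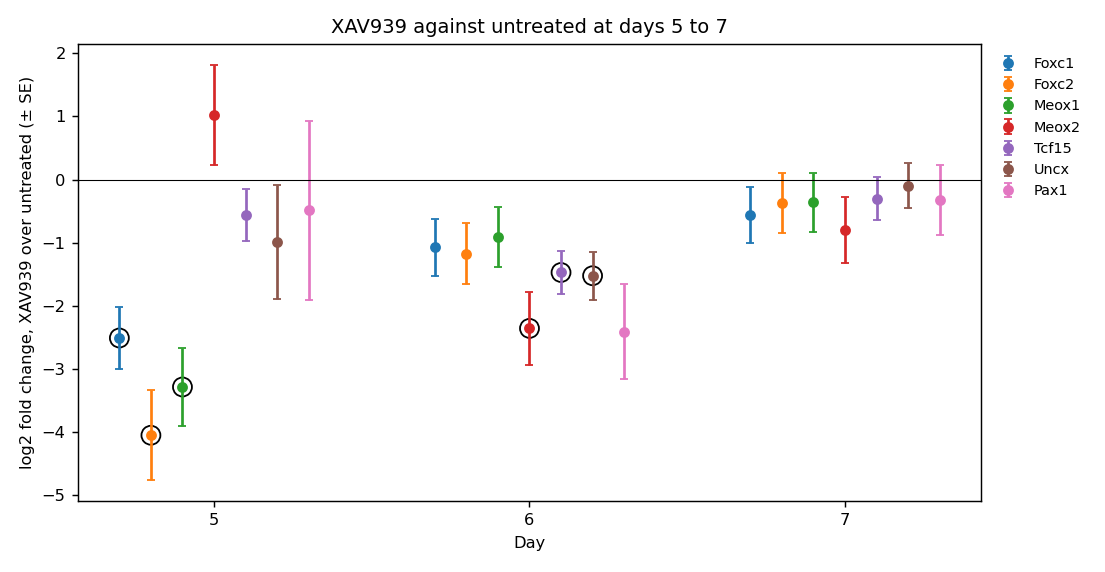
Log2 fold change of XAV939 over untreated aggregates for the 7 genes at days 5, 6 and 7, with bars of 1 SE from edgeR's quasi-likelihood fit. Circled points were called. The values at day 7 lie between -0.80 and -0.10, closer to 0 than those of the same genes at day 6.

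An F test of the 5 daily effects together called 5 of the 7 genes, against 5.8% of all genes. These were Foxc2 (adjusted p = 0.00371), Foxc1 (0.00640), Meox1 (0.00844), Tcf15 (0.0313) and Meox2 (0.0406), whereas Uncx (0.120) and Pax1 (0.408) missed the threshold. With the pairs within each day as blocks Uncx was called (0.0495) and Meox2 was not (0.201), where 2260 of all genes were called against 979 without blocks. With single libraries left out the highest adjusted p was 0.116 for Meox2 and 0.144 for Tcf15, and between 0.0136 and 0.0428 for the other 3 called genes. Without library 1 in every group none of the 5 was called (adjusted p from 0.166 to 0.613). Whether the effect itself differed between days was tested apart, and edgeR called none of the 7 (0.231% of all genes were called), with 3 at an unadjusted p below 0.05. DESeq2 called 2 in the same test, Meox1 (0.0296) and Meox2 (0.0276), where it called 239 of all genes against 39 by edgeR. Meox1 (0.0467) and Foxc2 (0.0389) were called by edgeR when untreated library 4 of day 5 was left out. Set against day 5, the effect at day 7 was 3.68 log2 units higher for Foxc2 (SE 0.869, adjusted p = 0.259), 2.93 for Meox1 (SE 0.773, adjusted p = 0.295) and 1.95 for Foxc1 (SE 0.655, adjusted p = 0.509). These 3 are the genes that were called lower at day 5. For the others this difference was 0.89 (Uncx), 0.26 (Tcf15), 0.17 (Pax1) and -1.82 (Meox2), and none of the 7 was called. The difference of Foxc2 was 4.10 and called (adjusted p = 0.0101) when untreated library 4 of day 5 was left out.

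Foxc1 averaged 0.0861 ± 0.0237, 0.281 ± 0.0733, 1.55 ± 1.03, 15.8 ± 7.42 and 21.2 ± 5.71 CPM on days 3 to 7 in XAV939 aggregates (SD, n = 4 libraries a day), and 0.0945 ± 0.0832, 0.545 ± 0.494, 8.92 ± 8.33, 33.3 ± 10.1 and 31.4 ± 7.004 CPM in untreated aggregates. It rose at days 5 and 6 in XAV939 aggregates, by 2.46 and 3.34 log2 units (adjusted p = 0.00228 and 1.1e-05), and at days 4, 5 and 6 in untreated aggregates, by 2.47, 4.02 and 1.90 (adjusted p = 0.0147, 2.86e-06 and 0.00265). The untreated rise at day 4 was 1.65 log2 units and not called without library 1 of that group (adjusted p = 0.163), and the rise at day 6 was not called when only the libraries compared were fitted (adjusted p = 0.0783).

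At day 5 Foxc1 had 0.954, 3.09, 1.002 and 1.15 CPM in XAV939 libraries 1 to 4, against 20.9, 6.45, 6.73 and 1.61 CPM in untreated libraries 1 to 4. The groups overlapped in 1 library on each side, XAV939 library 2 and untreated library 4. Its log2 change was -2.51 (SE 0.494, adjusted p = 0.00517), and -1.66 without untreated library 1 (adjusted p = 0.0735). At day 6 it had 9.65, 13.4, 26.6 and 13.5 CPM with XAV939, against 42.9, 23.9, 41.1 and 25.2 CPM without, where only XAV939 library 3 lay within the untreated range, and the log2 change of -1.08 was not called (SE 0.448, adjusted p = 0.205). By day 7 the values were 13.7, 22.9, 27.4 and 20.8 CPM in XAV939 aggregates and 34.2, 22.2, 38.7 and 30.4 CPM in untreated aggregates, and the groups overlapped.

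Foxc2 was close to undetected until day 4. Over all 4 libraries it had 1 count at day 3 in each arm, and at day 4 it had 2 counts in XAV939 aggregates and 3 in untreated aggregates, all 3 in library 1. From there it reached 0.131 ± 0.0247, 16.0 ± 5.64 and 19.4 ± 4.87 CPM on days 5, 6 and 7 with XAV939, and 2.26 ± 3.16, 36.2 ± 18.8 and 25.1 ± 5.17 CPM without. Day 7 held 2555 times the day 3 level in XAV939 aggregates (2877 counts over 1, 95% counting interval 458 to 100952) and 3600 times in untreated aggregates (3872 counts over 1, interval 646 to 142217), so the size of this rise is known only within a wide range.

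The difference between the arms was large at day 5. Foxc2 had 0.112, 0.166, 0.115 and 0.132 CPM in XAV939 libraries 1 to 4, against 6.96, 1.08, 0.876 and 0.132 CPM in untreated libraries. XAV939 aggregates stayed within a 1.48-fold range, whereas the untreated libraries spanned 52.9-fold and the lowest of them was level with XAV939 library 4. This was a log2 change of -4.06 (SE 0.710, adjusted p = 0.00210), and -2.39 without untreated library 1 (adjusted p = 0.0427), which kept the call. Between day 4 and day 5 the level rose 97.6-fold in untreated aggregates (315 counts over 3, interval 33.1 to 476), a fitted rise of 6.48 log2 units (adjusted p = 6.88e-06) that was 4.81 and still called without untreated library 1 of day 5, which held 233 of the 315 counts. In XAV939 aggregates the level at day 5 was 8.70 times that at day 4 (18 counts over 2, interval 2.08 to 77.3) without being called.

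At day 6 Foxc2 had 10.7, 15.04, 24.0 and 14.3 CPM with XAV939, against 35.6, 20.5, 62.8 and 25.9 CPM without. Only XAV939 library 3 lay above the lowest untreated library. The log2 change was -1.18 (SE 0.479, adjusted p = 0.189), and with libraries paired by number within the day it was -1.11 and called (adjusted p = 0.0274). At day 7 the libraries had 13.2, 19.7, 25.1 and 19.6 CPM with XAV939 and 22.8, 20.2, 32.2 and 25.1 CPM without. XAV939 was lower in each of the 4 pairs at that day too, as it was for Meox1 and Tcf15 among the 7 and for 14.1% of all genes.

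Meox1 first fell and then became the most abundant of the 7. It averaged 0.882 ± 0.231, 0.172 ± 0.0923, 0.593 ± 0.424, 77.8 ± 16.5 and 104 ± 33.3 CPM on days 3 to 7 in XAV939 aggregates (SD, n = 4), and 0.8294 ± 0.102, 0.159 ± 0.0828, 5.83 ± 8.64, 146 ± 51.9 and 134 ± 34.7 CPM in untreated aggregates. The fall to day 4 was of similar size in both arms, 2.34 log2 units with XAV939 (adjusted p = 0.0302) and 2.36 without (adjusted p = 0.0337), and it was lost in each arm when single libraries were left out (highest adjusted p 0.0794 and 0.0944). Between days 5 and 6 Meox1 rose by 7.04 log2 units with XAV939 (adjusted p = 3.23e-09) and by 4.66 without (adjusted p = 1.55e-07), after a rise of 5.16 between days 4 and 5 in the untreated arm (adjusted p = 6.55e-06). Without untreated library 1 of day 5 the untreated rises were 3.24 log2 units to day 5 and 6.58 to day 6, and both were still called.

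At day 5 Meox1 had 0.253, 0.967, 0.200 and 0.954 CPM in XAV939 libraries 1 to 4, against 18.8, 2.19, 1.41 and 0.947 CPM in untreated libraries. Untreated library 4 lay within the XAV939 range, and untreated library 1 was far above all others. The log2 change was -3.29 (SE 0.614, adjusted p = 0.00381), and -1.37 without untreated library 1 (adjusted p = 0.103), so that library carried the call. At day 6 Meox1 had 58.3, 84.7, 96.6 and 71.6 CPM with XAV939 against 216, 93.3, 152 and 125 CPM without, a log2 change of -0.91 (SE 0.471, adjusted p = 0.350), and only XAV939 library 3 lay above the lowest untreated library. At day 7 it had 64.9, 94.6, 144 and 114 CPM with XAV939 and 129, 94.7, 179 and 133 CPM without.

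Meox2 reached the onset limit later than Meox1. It averaged 0.0961 ± 0.0620, 0.0449 ± 0.0162, 0.265 ± 0.107, 0.760 ± 0.150 and 5.32 ± 1.60 CPM on days 3 to 7 with XAV939, and 0.113 ± 0.0851, 0 ± 0, 0.129 ± 0.0499, 3.90 ± 5.61 and 9.25 ± 5.13 CPM without. At day 4 it had 2, 1, 2 and 1 counts in XAV939 libraries and 0 in each untreated library, the one case at that day of groups that did not overlap (2.03% of all genes in either direction, and 1.04% with XAV939 lower, the direction opposite to that of Meox2), and it was not called. Against the floor of 3 counts over the group, untreated Meox2 was at least 5.37-fold lower at day 4 than at day 3 (0 against 17 counts, adjusted p = 0.0270), and at day 5 at least 5.89-fold higher than at day 4 (19 against 0 counts, adjusted p = 0.0338). Both calls were lost when certain single libraries were left out (highest adjusted p 0.0883 and 0.0816), and at these counts each library matters.

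At day 6 Meox2 had 0.831, 0.771, 0.891 and 0.547 CPM in XAV939 libraries 1 to 4, against 12.3, 0.943, 1.03 and 1.32 CPM in untreated libraries. The groups did not overlap, but untreated libraries 2 to 4 lay just above the XAV939 range while library 1 was 13.1 times the lowest of its group. The log2 change was -2.36 (SE 0.577, adjusted p = 0.0127), -0.53 without untreated library 1 (adjusted p = 0.490), -2.23 without XAV939 library 4 (adjusted p = 0.0640) and -1.52 with libraries paired within the day (adjusted p = 0.0939). At day 7 it had 3.55, 4.46, 7.06 and 6.21 CPM with XAV939 and 13.997, 3.66, 13.2 and 6.15 CPM without, so 2 untreated libraries lay above all of the XAV939 libraries and the other 2 within their range. Meox2 rose at day 7 in XAV939 aggregates, by 2.80 log2 units (adjusted p = 0.00200).

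Tcf15, which mouse embryonic stem cells also express as they leave the naive state, was the member that changed least. It stayed between 0.289 and 1.21 CPM in the libraries of days 3 to 5, and averaged 0.533 ± 0.152, 0.575 ± 0.228, 0.485 ± 0.126, 6.90 ± 1.21 and 8.47 ± 2.48 CPM on days 3 to 7 with XAV939, against 0.925 ± 0.203, 0.668 ± 0.221, 0.721 ± 0.426, 19.2 ± 12.9 and 10.5 ± 3.25 CPM without. Its day 7 level was 3.98 log2 units above that of day 3 with XAV939 (SE 0.405, adjusted p = 1.37e-10) and 3.49 without (SE 0.384, adjusted p = 8.74e-10), the smallest of these rises among the 7. At day 3 its libraries had 0.426, 0.572, 0.730 and 0.403 CPM with XAV939 and 0.791, 1.21, 0.922 and 0.775 CPM without. These groups did not overlap (1.29% of all genes, 0.764% with XAV939 lower), and the log2 change of -0.79 was not called. At day 4 Tcf15 was again lower in all 4 pairs of a number (10.2% of all genes), by little, with 0.451, 0.915, 0.432 and 0.502 CPM with XAV939 and 0.461, 0.974, 0.665 and 0.570 CPM without.

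At day 6 Tcf15 had 5.67, 8.15, 7.70 and 6.07 CPM in XAV939 libraries 1 to 4, against 18.8, 8.997, 37.5 and 11.4 CPM in untreated libraries. All XAV939 libraries lay below all untreated ones, among which libraries 1 and 3 were the highest. The log2 change was -1.47 (SE 0.342, adjusted p = 0.00829), and -0.91 without untreated library 3 (adjusted p = 0.137). Between days 5 and 6 Tcf15 rose by 3.82 log2 units with XAV939 (adjusted p = 3.19e-08) and by 4.73 without (adjusted p = 6.66e-10). At day 7 it had 6.32, 7.16, 11.9 and 8.45 CPM with XAV939 and 7.84, 8.00, 14.7 and 11.3 CPM without, and the groups overlapped.

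Uncx had no count in any of the 8 libraries of day 3. It averaged 0.0528 ± 0.0289, 0.0213 ± 0.0274, 0.782 ± 0.278 and 3.42 ± 0.742 CPM on days 4 to 7 with XAV939, and 0.0296 ± 0.0428, 0.0465 ± 0.0118, 2.25 ± 1.38 and 3.67 ± 0.911 CPM without. Against the floor of 3 counts over the group, day 7 was at least 150.1-fold above day 3 with XAV939 (adjusted p = 4.15e-12) and at least 175-fold without (adjusted p = 2.25e-12). The rise at day 4 with XAV939, from 0 to 7 counts in the group, was at least 2.30-fold (adjusted p = 0.0169) and was not called without library 1 of that day (adjusted p = 0.0513). Its rise at day 6 was 35.9-fold with XAV939 (119 counts over 3, 95% counting interval 12 to 177) and 5.49 log2 units without (adjusted p = 2.01e-08).

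At day 6 Uncx had 1.11, 0.881, 0.459 and 0.677 CPM in XAV939 libraries 1 to 4, against 4.26, 1.37, 2.04 and 1.35 CPM in untreated libraries. The groups did not overlap, and untreated library 1 was again the highest. The log2 change was -1.53 (SE 0.380, adjusted p = 0.0161). It was not called without untreated library 1 (-1.01, adjusted p = 0.119), XAV939 library 3 (-1.34, adjusted p = 0.0537) or XAV939 library 4 (-1.46, adjusted p = 0.0709). By day 7, after a further rise of 2.12 log2 units with XAV939 (adjusted p = 0.000587), the libraries had 2.77, 2.90, 4.37 and 3.64 CPM with XAV939 and 3.64, 2.78, 4.93 and 3.34 CPM without, and the ranges lay nearly on top of each other.

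Pax1 was the last to rise, and most of its rise fell into the final day. It averaged 0.134 ± 0.0407, 0.104 ± 0.0708, 0.0529 ± 0.0335, 0.230 ± 0.220 and 29.2 ± 14.5 CPM on days 3 to 7 with XAV939, and 0.102 ± 0.0516, 0.136 ± 0.0651, 0.0719 ± 0.0287, 1.22 ± 2.04 and 36.5 ± 14.8 CPM without. Its mean at day 6 was 0.788% of that at day 7 with XAV939 and 3.34% without. The rise to day 7 was 6.96 log2 units with XAV939 (adjusted p = 6.85e-07) and 4.87 without (adjusted p = 2.33e-05), which became 7.43, still called, without untreated library 1 of day 6. In the untreated arm it had already risen at day 6, by 4.02 log2 units (adjusted p = 0.00116), which became 1.46 without library 1 of that day (adjusted p = 0.235).

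At day 6 Pax1 had 0.428, 0.413, 0.0540 and 0.0260 CPM in XAV939 libraries 1 to 4, against 4.26, 0.486, 0.0646 and 0.0586 CPM in untreated libraries. In both arms libraries 1 and 2 were above libraries 3 and 4, with 17, 15, 2 and 1 counts in the XAV939 libraries and 160, 17, 2 and 2 in the untreated ones. Its log2 change of -2.41 was not called (SE 0.746, adjusted p = 0.0570). Without untreated library 1 it was 0.15 (adjusted p = 0.928). It was called without untreated library 2, 3 or 4 (lowest adjusted p 0.00985) and, at -1.97, with libraries paired within the day (adjusted p = 0.0264). At day 7 it had 20.3, 44.8, 13.99 and 37.9 CPM with XAV939 and 58.2, 31.7, 24.7 and 31.2 CPM without, with no order between the arms.

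The spread between libraries of a group was wide for several genes at days 5 and 6. At day 5 the highest untreated library exceeded the lowest 19.8-fold for Meox1, 13.02-fold for Foxc1 and 52.9-fold for Foxc2, against 4.82-fold, 3.24-fold and 1.48-fold among XAV939 libraries. At day 6 the untreated spread was 13.1-fold for Meox2, 4.16-fold for Tcf15 and 72.7-fold for Pax1, which also spanned 16.4-fold among XAV939 libraries. By day 7 it lay between 1.58-fold and 3.83-fold for each of the 7 in both arms. Untreated library 1 was the highest of its group for 4 of the 7 genes at day 5 and for 5 of them at day 6, where library 3 was highest for the other 2 (Foxc2 and Tcf15). At day 7 library 3 was the highest for 6 of the 7 in XAV939 aggregates and for 5 in untreated aggregates. Libraries with the same number in the 2 arms deviated together over all genes, with correlations between 0.145 and 0.523 in all 20 pairs.

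**Figure D3:**
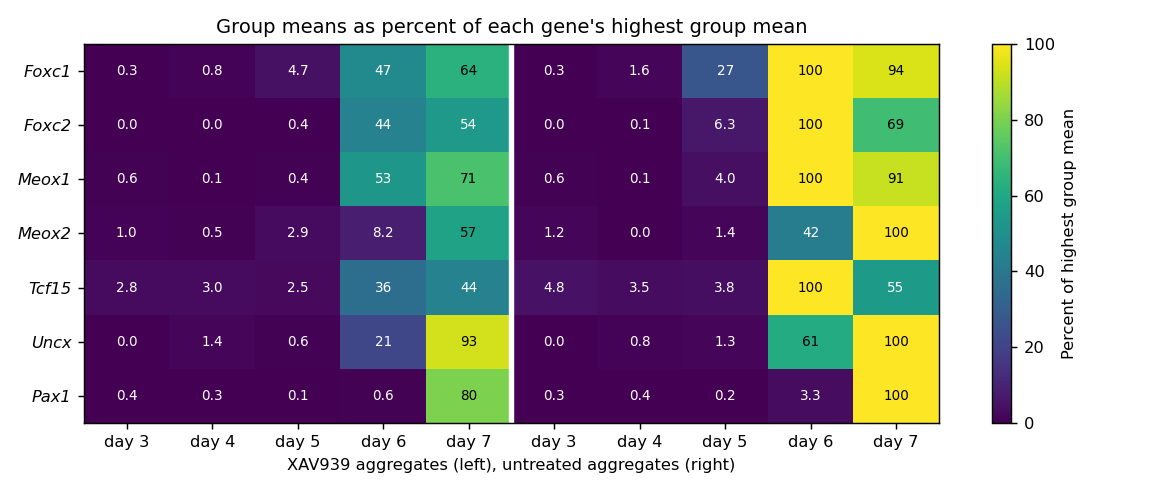
Group means of the 7 genes on days 3 to 7, as a percentage of each gene's highest group mean, with XAV939 groups on the left and untreated groups on the right. For Foxc1, XAV939 aggregates stood at 4.66% at day 5 and 47.4% at day 6, and untreated aggregates at 26.8% and at their highest mean (day 6), while Pax1 is near 0 before day 7 in both arms.

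Per kilobase of exon, Meox1 was the most abundant of the 7 at day 7, with 46.9 ± 14.95 CPM per kb in XAV939 aggregates and 60.1 ± 15.6 in untreated aggregates (SD, n = 4). The order below it was the same in both arms. Tcf15 had 8.64 ± 2.53 CPM per kb with XAV939 and 10.7 ± 3.31 without, Foxc2 7.12 ± 1.79 and 9.20 ± 1.90, and Pax1 6.51 ± 3.23 and 8.12 ± 3.30. Foxc1 followed with 3.63 ± 0.977 and 5.37 ± 1.20, Meox2 with 2.25 ± 0.679 and 3.92 ± 2.17, and Uncx with 1.09 ± 0.236 and 1.17 ± 0.291. Meox1 lay above Tcf15 in every library of both arms, and Meox2 lay above Uncx in every XAV939 library. Other neighbours in the order overlapped, so their places are not settled by 4 libraries.

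For each gene the 3 genes with the most similar course were found by the root mean square difference in log2 CPM over the 40 libraries, after centring each gene, among genes that reached a mean of 5 CPM in some group. The libraries share days and arms, so likeness here is mainly likeness in time. Genes of the Hox clusters, which give cells their position along the body axis, stood near 3 of the 7. The nearest to Meox1 were Hoxb5os (0.82), Hoxc6 (1.08) and Hoxd4 (1.16), those to Foxc2 were Hoxb5os (0.73), Hoxd4 (0.74) and Hoxc4 (0.79), and those to Foxc1 were Hoxa5 (0.69), 9030622O22Rik (0.78) and Pdgfra (0.84), the last a growth factor receptor of paraxial and other mesenchyme. Hoxa5 averaged 0.598 ± 0.366 CPM at day 5 with XAV939 and 2.93 ± 2.56 CPM without.

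Nearest to Pax1 were Col3a1 (0.81), a fibrillar collagen, Fap (1.02), a protease of mesenchymal cells, and Pyy (1.22), a gut hormone. Col3a1 averaged 0.521 ± 0.0783 CPM at day 6 with XAV939 and 1.58 ± 1.84 CPM without, and at day 7 it averaged 42.5 ± 29.1 and 58.1 ± 42.7 CPM. Nearest to Meox2 were 9130410C08Rik (0.74), the growth factor gene Igf1 (0.85) and Hapln1 (0.90), a link protein of cartilage matrix. Nearest to Tcf15 were Cpn1 (0.71), Rcsd1 (0.71) and Smoc1 (0.78), and nearest to Uncx were Foxd2os (0.59), the forkhead gene Foxd2 (0.64) and Ptgfr (0.65). Among the 7 themselves the most alike were Tcf15 and Uncx (0.96), Meox2 and Uncx (0.98) and Meox1 and Foxc2 (1.01), and the least alike were Foxc2 and Pax1 (3.17). Foxc1 and Foxc2, the forkhead pair, were at 1.21, and Meox1 and Meox2, the homeodomain pair, at 2.03.

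At day 5, where Foxc1, Foxc2 and Meox1 were called lower, 3 of 9 genes of the presomitic mesoderm and of segmentation were also called lower in XAV939 than in untreated aggregates. All 9 had negative log2 changes, with a median of -1.89. The 3 were Dll3, a Notch pathway ligand of segmentation, with -1.89 (SE 0.457, adjusted p = 0.0205), Tbx6, the T-box factor that specifies paraxial mesoderm, with -2.87 (SE 0.747, adjusted p = 0.0321), and Hes7, an oscillating repressor of the segmentation clock, with -2.87 (SE 0.780, adjusted p = 0.0397, and 0.0836 in DESeq2). Tbx6 had 3.84, 6.85, 4.72 and 2.90 CPM in XAV939 libraries 1 to 4, against 72.1, 20.8, 34.2 and 6.84 CPM in untreated libraries, so XAV939 library 2 alone reached the lowest untreated value. With libraries paired within the day 5 of the 9 were called, and without library 1 in every group none was.

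At day 6, 1 of the 9 was lower (Ripply1, a repressor of segmentation, log2 change -1.19, adjusted p = 0.0135, named after its values were seen). Tbx6 then had 4.11, 3.8005, 22.9 and 6.64 CPM with XAV939 against 1.89, 12.97, 33.2 and 14.2 CPM without. In untreated aggregates at day 6, the library highest for these genes was not the one highest for most of the somite factors. Untreated library 3 was the highest of its group for all 9 at day 6, where untreated library 1 was the highest for 5 of the 7 factors. In the other groups of days 5 to 7 the same library led both lists. It was untreated library 1 at day 5 (8 of the 9 and 4 of the 7) and XAV939 library 2 at day 5 (7 and 4). With XAV939 at day 6 it was library 3 (8 and 4), as in both arms at day 7 (5 and 6 with XAV939, 6 and 5 without). At day 7 none of the 9 was called.

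**Figure D4:**
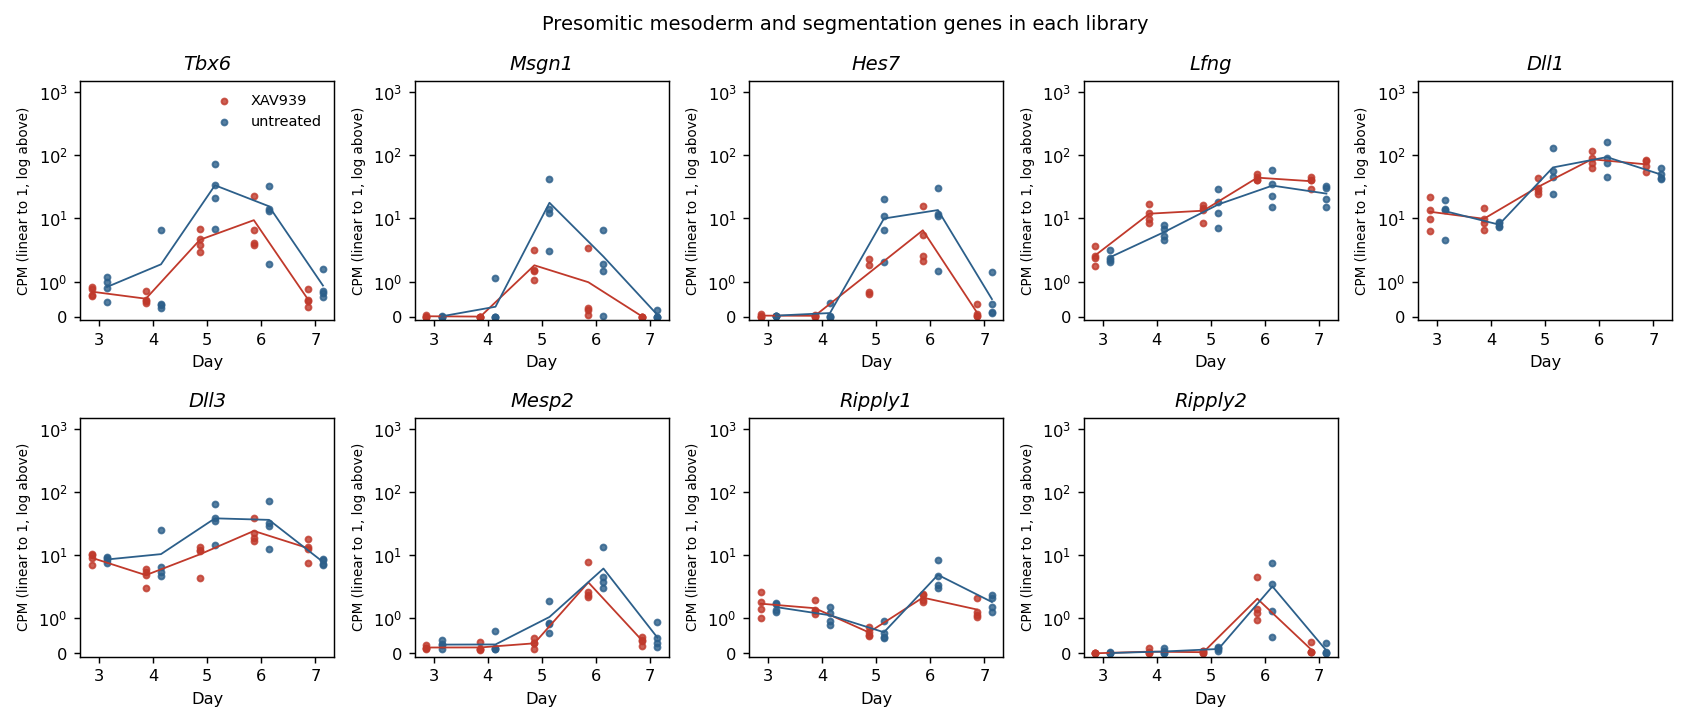
Level of 9 presomitic and segmentation genes in every library, in CPM on an axis linear up to 1 and logarithmic above, against day of culture. XAV939 libraries are red and left of the blue untreated libraries, and lines join the group means. For Tbx6 at day 5 the untreated libraries lie between 6.84 and 72.1 CPM and the XAV939 libraries between 2.90 and 6.85 CPM.

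Of 15 other genes of somites, sclerotome, dermomyotome and myotome, 1 was called lower with XAV939 at day 5, 2 at day 6 and none at day 7, with median log2 changes of 0.03, -0.87 and -0.35. The one at day 5 was Aldh1a2, the enzyme that makes retinoic acid in the trunk mesoderm, with 1.60, 4.09, 0.429 and 2.17 CPM in XAV939 libraries 1 to 4 against 216, 35.0, 20.7 and 4.82 CPM in untreated libraries. These groups did not overlap, the log2 change was -5.05 (SE 0.715, adjusted p = 0.000256), and Aldh1a2 was still called without library 1 in every group. At day 6 Twist1, a basic helix-loop-helix factor of mesenchyme, was among those called lower, with 4.96, 5.56, 8.89 and 4.82 CPM in XAV939 libraries 1 to 4 against 19.1, 8.31, 18.6 and 8.24 CPM in untreated libraries (log2 change -1.16, adjusted p = 0.0111). With libraries paired within the day 3 were called at day 5 (Aldh1a2 lower, Pax3 and Pax7 higher) and 6 at day 6 (5 lower and Pax7 higher), whereas without library 1 in every group none was called at day 6.

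Several of the 7 are also expressed outside the somites, so markers of other tissues were read beside them, and their part in the results was not tested. Lateral and intermediate mesoderm genes were lower for 2 of 12 at day 5 and 3 of 12 at day 6 (6 when paired within the day), among them Gata4, a factor of heart and gut mesoderm, with log2 changes of -2.46 (adjusted p = 0.0209) and -3.28 (adjusted p = 0.00111). Their summed level ranged from 28.99 to 55.01 CPM with XAV939 and from 46.9 to 154 CPM without at day 5, and from 37.0 to 60.6 CPM against 71.7 to 179 CPM at day 6. Endothelial genes, in a tissue that expresses Foxc1, Foxc2 and Meox2, were lower for none of 8 at day 5 and for 3 of 8 at day 6 (Cd34, Etv2 and Tal1), with sums of 7.502 to 14.7 CPM with XAV939 and 11.8 to 91.2 CPM without. Untreated library 1 was the highest of its group for all 8 endothelial genes at day 6, as it was for Meox2, Pax1, Uncx, Foxc1 and Meox1. This was not particular to the endothelial genes. The same library was the highest for 12 of the 15 other somite, sclerotome, dermomyotome and myotome genes and for 9 of the 12 lateral and intermediate mesoderm genes.

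Genes of the pharyngeal and gut endoderm, which can express Pax1, were lower for 4 of 6 at day 5 and 3 of 6 at day 6, with log2 changes of -1.85 and -1.57 for Cldn6 (adjusted p = 0.00381 and 0.00504). Of the neural progenitor genes, Pou3f2 and Pou3f3, POU factors of the neural tube, were the 2 of 8 called higher with XAV939 at both days, where 0.912% and 1.39% of all genes were called higher. Their log2 changes at day 5 were 1.93 and 1.75 (adjusted p = 0.0170 and 0.0364). Of the 8 genes, 6 had positive and 2 negative log2 changes at each of these days, with medians of 1.03 and 0.66. The 8 genes summed to 137 to 254 CPM with XAV939 against 63.2 to 124 CPM without at day 5, and to 211 to 361 CPM against 99.7 to 205 CPM at day 6. Of 5 neural crest genes 1 was called higher with XAV939 at day 6, Tfap2b (log2 change 5.13, adjusted p = 0.00804), while 3 of the 5 had negative log2 changes and the median was -0.53. XAV939 library 1 was the highest of its group for all 5 at that day, where the summed level ran from 3.33 to 42.6 CPM with XAV939. None of 6 Wnt feedback and target genes was called by edgeR or DESeq2 on any day, and Lef1 and Sp5 were called lower at day 5 with libraries paired within the day (adjusted p = 0.00587 and 0.0174). At day 7 no gene of any of these lists was called without the pairing. Leaving library 1 out of every group lowered the calls at day 5 to 0 for the lateral and intermediate mesoderm and the neural progenitors and to 1 for the endoderm, and those at day 6 to 0 for the endothelium, the neural progenitors and the neural crest, while 3 were called at day 6 for both the lateral and intermediate mesoderm and the endoderm. With libraries paired within the day the endothelial calls at day 6 were Cd34, Etv2 and Kdr, and Tal1 was not called.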

How the data were processed

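Poly(A) RNA of 40 samples, 4 in each of 10 groups (XAV939 and untreated aggregates at 5 days), was extracted with Trizol, made into stranded TruSeq libraries and read in pairs on an Illumina sequencer, per the labels' protocols. The deposited values are raw counts per gene, as whole numbers with no normalisation. bcl2fastq 2.20.0 and the mm10 build are named per the submitters' processing notes. Not given in the sources used here are aligner, counter, annotation and strand setting, so reads of overlapping genes may have been split. Columns were matched to samples by day, arm and number in the titles.

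The tests ran in R 4.3.3 with edgeR 4.0.16 (limma 3.58.1). Of all genes, 16878 passed filterByExpr, set to a count of 10 and a total of 15 over the 10 groups. After TMM scaling, group means were fitted to all 40 libraries in 1 robust quasi-likelihood model (30 residual degrees of freedom, prior of 5.19). SE is the absolute log2 fold change over the square root of F. Calls were made at a Benjamini-Hochberg adjusted p below 0.05 over all tested genes, and since no label names separate cultures, p-values cover only the spread among these libraries, which may be technical. Folds against 0 counts use a floor of 3 counts over the group, and ratios of 1 to 3 counts have 95% exact intervals. Both cover counting error only. The steps were checked on simulated data with 200 changed genes. No libraries of 1 group were copies of each other (smallest chi-square per gene 9.84 over 60 pairs).

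The 7 genes and the marker lists were chosen with earlier results of these data known. Named genes are the 7, the 3 of each list with the smallest adjusted p in the F test of the 5 effects, and the 3 nearest in course to each of the 7. List genes outside this rule were named after their values were seen: Ripply1, Tal1, Pax3 and Pax7. The values of 1 list gene that this rule names are not reported here. Nearness used log2 CPM with a prior count of 2.

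Alternatives were relative log expression size factors, DESeq2 1.42.0, no filter on low counts, replicate numbers as blocks, over all days or within each day, fits of only the libraries compared, and each library left out. Added after the data were seen were the fit without library 1 in every group and the contrasts between days' effects. Within a day the numbers pair XAV939 with untreated libraries, because same-numbered libraries correlated over 0.1 in all 20 pairs (0.145 to 0.523), with 19 best with their own number. Between neighbouring days 26 of 32 pairs passed 0.1, and between days 7 and 3 it was 1 of 8, so numbers were not taken to pair days. Promoter sequences are from RefSeq (GRCm38.p6).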

Additional observations from a re-analysis of the deposited data

Results flagged for a closer look

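Among 29 combinations of a gene and a group with a mean of at least 1 CPM, 5 had 1 library whose gap to the nearest other library exceeded Dixon's 95% critical value for 4 samples, as a share of the group's range. Chance gives this for about 1 in 20 groups of normally distributed values. The CPM were not transformed and the combinations share libraries, so the 5 cannot be set against that rate. In 4 of the 5 combinations the library was library 1 of an untreated group. Meox1 at day 5 had 18.8 CPM in untreated library 1, with the other 3 between 0.947 and 2.19 CPM. Foxc2 at day 5 had 6.96 CPM in the same library, with the others between 0.132 and 1.08 CPM. At day 6 Meox2 had 12.3 CPM in untreated library 1 against 0.943 to 1.32 CPM in the others, and Pax1 had 4.26 CPM against 0.0586 to 0.486 CPM. The fifth was Foxc1 at day 5, with 3.09 CPM in XAV939 library 2 and 0.954 to 1.15 CPM in the other XAV939 libraries.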

How the results depend on the processing

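Of the alternatives, relative log expression size factors changed no call of the 7 genes and DESeq2 changed 2, both in the test of change between days, where it called 2 genes and edgeR 0. With no filter on low counts 4 calls were lost, those of Meox1 at day 4 in both arms, Meox2 at day 5 in untreated aggregates and Meox2 in the F test. Fitting only the libraries compared called 0 genes at day 5 and 0 at day 6 instead of 3 and 3, and 9 untreated steps instead of 15. The filter on low counts was applied anew in these fits. Foxc2 between the arms at day 5 did not pass it and was not tested there. The same holds for the untreated steps of Meox2 and Foxc1 to day 4, Meox2 and Foxc2 to day 5, and Pax1 to day 6. Without replicate 1 in every group the counts were 0 at day 5, 0 at day 6 and 0 in the F test of the 5 effects, instead of 5, and over all genes that fit called 70 at day 5 and 243 at day 6 instead of 395 and 733, so it lowers calls in general. With 1 library left out at a time, the counts ran from 1 to 3 at day 5, 1 to 4 at day 6, 3 to 6 in the F test of the effects and 0 to 2 in the test of change, from 9 to 12 for XAV939 steps and 12 to 16 for untreated steps, and stayed at 7 for day 7 against day 3 in both arms and at 0 for XAV939 at days 3, 4 and 7. The lowest counts came without untreated library 1 (day 5), without untreated library 1 or XAV939 library 4 of day 6 (day 6), and without these 2 or XAV939 library 1 of day 6 (F test), and the 2 came without untreated library 4 of day 5. Signs turned in 3 cases. With single libraries left out the log2 change of Pax1 ran from -2.91 to 0.15 at day 6 and from -0.60 to 0.00079 at day 7, and that of Uncx from -0.24 to 0.073 at day 7, the positive values without untreated library 1, 1 and 3 of those days, and without replicate 1 in every group Pax1 was 0.14 at day 7. None of these was called. The replicate block over all days lost 1 call, Meox2 in the F test (adjusted p = 0.0833), and the replicate block within each day moved those printed beside the results and no other call of the 7 genes. The cause of these changes was not tested. Depth limits Foxc2, Uncx, Meox2 and Pax1 before day 6, where a library often held fewer than 10 counts. It also limits Pax1 at day 6, where libraries 3 and 4 held 2 and 1 counts with XAV939 and 2 and 2 without.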
